A study of Mus musculus with 16 samples.

Results

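The polyamine genes described here are 10 mouse genes: the synthesis enzymes Odc1, Amd1, Srm and Sms, the antizyme system genes Azin1, Oaz1 and Oaz2, and the catabolic genes Sat1, Smox and Paox. They were chosen by name from the 55487 gene identifiers of the deposited count table, and the set was selected on measured values, because Odc1 was higher in HER2 mutant organoids. All 10 passed the filter on low counts and belong to the 24252 genes tested. Values of any comparison that holds HER2 single mutant samples are therefore given below as a description, and so is Odc1 wherever a HER2 mutation is present. For those comparisons the number of genes past the threshold is listed once, and nothing is read from it.

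RNA was sequenced from 16 mouse mammary organoid samples, which are epithelial structures grown from tissue in three-dimensional culture. The samples fall into 4 genotypes. WT organoids (n = 3) came from normal breast. The mutant organoids came from breast tumor: 4 samples carry a PIK3CA mutation, 4 a HER2 mutation and 5 both, called double mutants here. The series title names the mutations as HER2 V777L and PIK3CA H1047R, activating changes in a receptor tyrosine kinase and in the catalytic subunit of phosphatidylinositol 3-kinase. No label says which promoter or recombinase drives the alleles, how old the mice were or which allele copies they carried. All groups grew in the same medium with epidermal growth factor, noggin and R-spondin. Tissue source and genotype cannot be told apart in any comparison with WT, and those comparisons share the same 3 WT samples. The labels do not say that each sample is a separate animal, so p-values measure the spread between these samples, which may be partly technical.

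Polyamines (putrescine, spermidine and spermine) are small cations that bind RNA and DNA and are needed for growth and for translation. Ornithine decarboxylase, encoded by Odc1, makes putrescine, and AMD1 supplies the aminopropyl groups with which SRM and SMS build spermidine and spermine. Antizymes bind ornithine decarboxylase and send it to the proteasome, antizyme inhibitor (AZIN1) releases it, and SAT1, PAOX and SMOX return spermine and spermidine towards putrescine. The mammary epithelium is known for high polyamine synthesis in pregnancy and lactation, and Odc1 is a textbook target of the transcription factor MYC.

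Antizyme level is set in part by translation: ribosomes must slip by a base at a stop codon in the Oaz1 and Oaz2 mRNAs, and polyamines promote the slip. The 30 bases around that stop are shown because RNA counts do not read this step, with the last codon before the stop and the stop itself in capitals (GENCODE M21 transcripts, genome build GRCm38).
Oaz1: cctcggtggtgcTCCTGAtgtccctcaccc
Oaz2: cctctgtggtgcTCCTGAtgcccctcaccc
The windows share 28 of 30 bases. The Oaz1 window was read from a protein-coding transcript and the Oaz2 window from one annotated as a processed transcript.

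Counts of 2 synthesis genes have to be read beside near-identical copies elsewhere in the genome. Odc1 (chromosome 12, 17544794 to 17551505, + strand, GRCm38) has 7 annotated relatives that match its longest coding transcript at 95% identity or more over 300 bases or more. Their summed counts came to 34.9% of those of Odc1. These are counts of whole genes, and some relatives match over a short stretch. AW146154, with 9.15% of the counts of Odc1, matches over 500 bases, and Rps7-ps2 over 359. The longest match with over 10% of the counts of Odc1 is the processed pseudogene Gm7993 (chromosome 5, 95974240 to 95975623, + strand), which matches over 1388 bases at 95.7% identity. The 60 coding bases 877 to 936 of Odc1, counted from the A of its start codon, hold the most mismatches to Gm7993. They are shown as the ungapped window of that length where the sequences differ most, and do not stand for the whole match. Capitals mark the 7 differing bases.
Odc1: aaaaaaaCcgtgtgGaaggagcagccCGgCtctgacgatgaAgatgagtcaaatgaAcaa
Gm7993: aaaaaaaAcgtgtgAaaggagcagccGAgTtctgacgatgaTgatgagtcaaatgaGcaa
Amd1 (chromosome 10, 40287458 to 40302186, − strand) has the intronless relative Amd2 (chromosome 10, 35708675 to 35711892, − strand). Their coding parts, 1002 bases each, differ by the single substitution G796C, written as the Amd1 base, the position from the start codon and the Amd2 base. Bases 776 to 816 are shown with that base in capitals.
Amd1: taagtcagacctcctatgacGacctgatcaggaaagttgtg
Amd2: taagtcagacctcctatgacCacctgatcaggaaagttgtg
Counts given to Amd2 came to 20.7% of those given to Amd1. How reads matching several places were counted is not given in the sources used here, so the split of reads between these genes is uncertain. Srm and Smox have no such relative, and for Sms, Oaz1, Oaz2, Sat1 and Paox the relatives hold between 1.06% (Sat1) and 5.44% (Paox) of the gene's counts. Azin1 has no copy elsewhere in the genome by this rule, but the antisense gene Gm49077 overlaps it by 481 bases on the opposite strand, with 1.44% of its counts.

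Levels are given as CPM, the count of a gene for every 1000000 counts of its library, scaled by the trimmed mean of M values (TMM), and divided by the length of the longest coding transcript in kilobases wherever genes are compared with each other. The order per kilobase in WT was Oaz1 (99.5 ± 5.87, SD, n = 3), Sat1 (67.9 ± 16.2), Oaz2 (31.5 ± 2.5), Smox (25.4 ± 5.75), Odc1 (22.8 ± 1.49), Amd1 (15.2 ± 3.02), Srm (14.3 ± 3.72), Sms (6.59 ± 1.62), Azin1 (4.49 ± 0.296) and Paox (2.66 ± 0.0322). The gaps from Oaz2 to Smox, from Smox to Odc1 and from Amd1 to Srm were smaller than the SDs of these genes added together. Oaz1, which encodes antizyme 1, and Sat1, spermidine/spermine N1-acetyltransferase, were the highest of the 10 genes in WT and PIK3CA mutant organoids. In PIK3CA mutant organoids Odc1 stood seventh, at 11.3 ± 0.868 CPM per kilobase (n = 4), next to Sms at 10.2 ± 1.16, from which it was not separated beyond their spread. In HER2 mutant organoids Odc1 was at 37.9 ± 8.5 (n = 4), directly below Sat1 (87 ± 44.8), Smox (86.9 ± 34.4) and Oaz1 (82.9 ± 17), which did not differ beyond their spread. Srm (29 ± 9.28) and Oaz2 (28.5 ± 1.36) came next, and Odc1 was not separated from them beyond their spread. In double mutant organoids Srm at 34.7 ± 6.61 and Oaz2 at 33.7 ± 4.87 (n = 5) followed Sat1, Oaz1 and Smox, in either order within their spread, and Odc1 was at 18.9 ± 2.07.

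**Figure D1:**
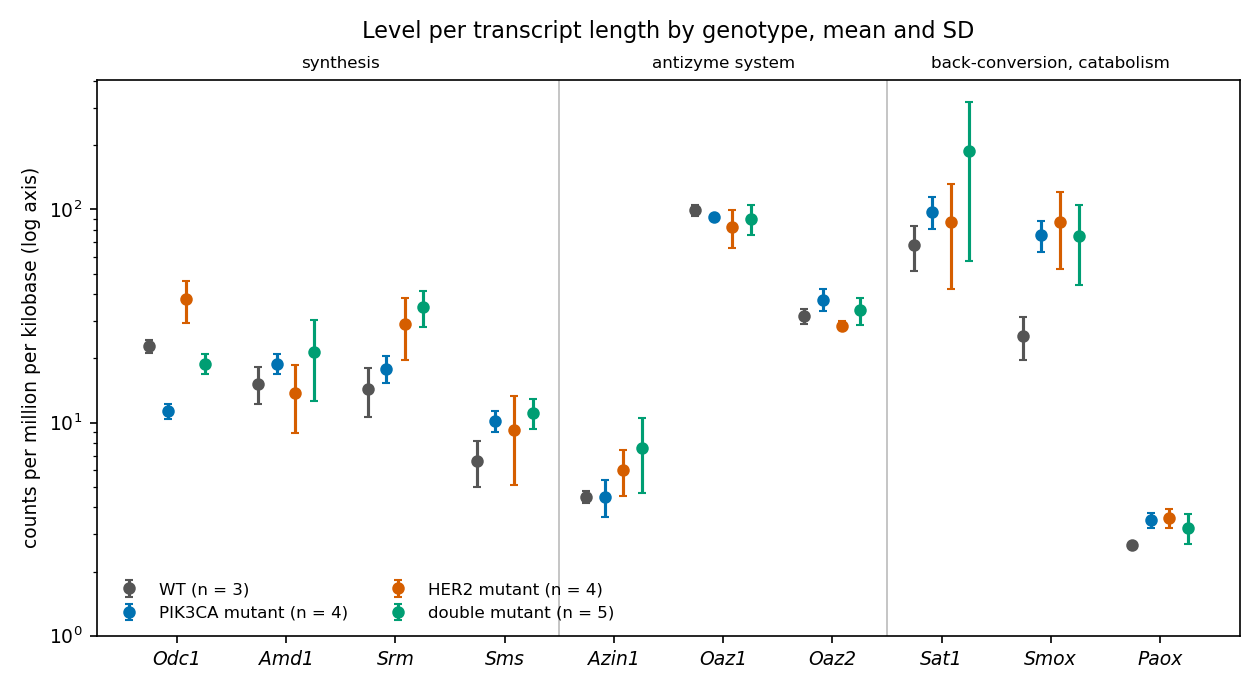
Mean level of each of the 10 polyamine genes in CPM per kilobase of the longest coding transcript (log axis), by genotype, with SD bars over the samples of each genotype (n = 3, 4, 4 and 5). Oaz1 and Sat1 lie near the top in every genotype, Smox is lowest in WT at 25.4, and Odc1 spans from 11.3 in PIK3CA mutants to 37.9 in HER2 mutants.

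Odc1, the first enzyme of the pathway, differed between genotypes with no overlap of samples between any pair of genotypes. Its level was 54.1, 48.4 and 48.4 CPM in the 3 WT samples. It was 27.5, 24.6, 22.9 and 24.7 CPM in the PIK3CA mutants, 60.6, 81.8, 106 and 85.9 CPM in the HER2 mutants, and 41.5, 46.8, 36.7, 37.8 and 45.8 CPM in the double mutants. The order of the genotypes was PIK3CA mutant, double mutant, WT and HER2 mutant, from low to high. The PIK3CA mutant against WT difference is the only one of Odc1 that holds no sample with a HER2 mutation. The selection named no reference group, so WT or PIK3CA mutant values may have entered it, and this test may not be independent of it. From WT to PIK3CA mutant Odc1 fell 2.02-fold (log2 fold change −1.01, SE 0.158, edgeR quasi-likelihood test, Benjamini-Hochberg adjusted p = 0.00161), lower in 4 of 4 samples. The adjusted p stayed between 0.00414 and 0.0109 when any of the 7 samples was left out. With the counts of its 7 relatives added, the summed level was 68.7 ± 4.79 CPM in WT (n = 3), 37.5 ± 2.73 in PIK3CA mutants (n = 4), 107 ± 22.1 in HER2 mutants (n = 4) and 56.7 ± 5.31 in double mutants (n = 5). The PIK3CA mutant to WT ratio of that sum was 0.546, against 0.496 for Odc1 alone. Reads from parts of the relatives that do not match Odc1 may be in that sum.

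The other differences of Odc1 are described and were not tested, because high Odc1 in HER2 mutants is what chose the genes. The log2 fold change was 0.73 (SE 0.161) from WT to HER2 mutant and 1.75 (SE 0.151) from PIK3CA mutant to HER2 mutant. Double mutants were 2.01-fold lower than HER2 mutants (SE of the log2 value 0.139) and 1.67-fold higher than PIK3CA mutants (log2 fold change 0.74, SE 0.142), and differed from WT by −0.27 (SE 0.151). The departure of the double mutant from the sum of both single mutant changes was 0.01 on the log2 scale (SE 0.211). The difference from PIK3CA to double mutant (0.74) and the difference from WT to HER2 mutant (0.73) were thus of nearly the same size. The same holds for the 2.02-fold lower level from WT to PIK3CA mutant and the 2.01-fold lower level from HER2 to double mutant. Both statements restate the departure of 0.01 and are no separate agreement.

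**Figure D2:**
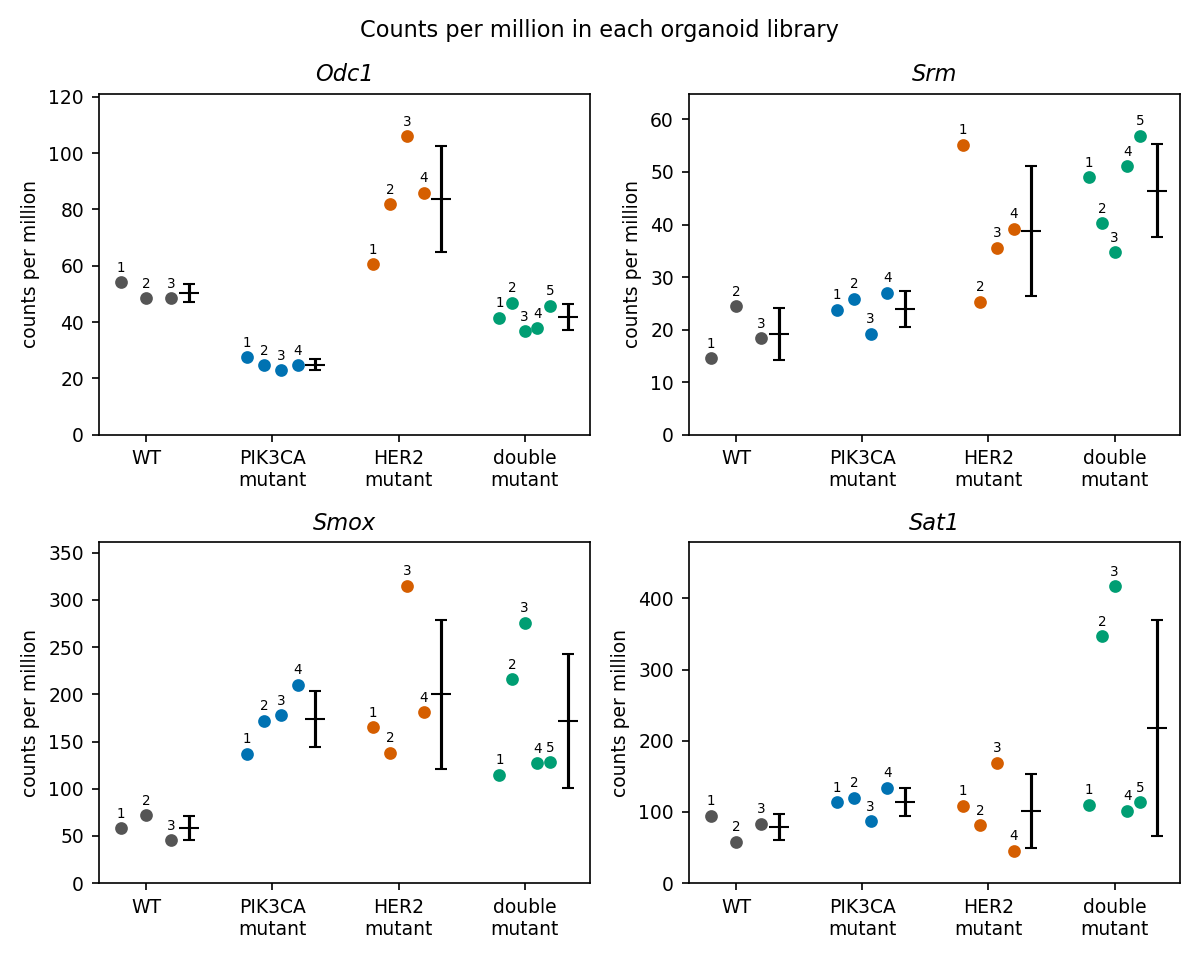
CPM of Odc1, Srm, Smox and Sat1 in each of the 16 libraries, by genotype; numbers beside the points are replicate numbers, and the black bars are mean and SD. Odc1 is lowest in the 4 PIK3CA mutants (22.9 to 27.5), all 3 WT samples lie lowest for Smox (45.4 to 71.8), and double mutant replicates 2 and 3 stand above all other samples for Sat1 (347 and 417).

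Srm encodes spermidine synthase. It was at 14.6, 24.5 and 18.4 CPM in WT, at 23.8, 25.9, 19.2 and 27 CPM in PIK3CA mutants, at 55.2, 25.3, 35.6 and 39.2 CPM in HER2 mutants and at 49, 40.3, 34.7, 51.1 and 56.9 CPM in double mutants. All 5 double mutants lay above all WT and all PIK3CA mutant samples, while the PIK3CA mutants overlapped WT. Srm rose 2.42-fold from WT to double mutant (log2 fold change 1.28, SE 0.244, edgeR adjusted p = 0.00316). From PIK3CA mutant to double mutant its log2 fold change was 0.95 (SE 0.218, edgeR adjusted p = 0.0599), higher in 5 of 5 samples and not past the threshold of 0.05. That call was made by DESeq2 (adjusted p = 0.00625), and by edgeR without double mutant replicate 3 (adjusted p = 0.0481). Srm differed by 0.32 (SE 0.245, adjusted p = 0.565) between PIK3CA mutant and WT.

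Amd1 and Sms passed no test in the fit of all 16 samples. Amd1, S-adenosylmethionine decarboxylase, was at 38.9 to 58.3 CPM in WT, 55.8 to 70.3 in PIK3CA mutants, 27.4 to 58.8 in HER2 mutants and 44.2 to 113 in double mutants, and its ranges overlapped between all pairs of genotypes. With its 5 relatives added, Amd1 gave 60.2 ± 12.6 CPM in WT and 83.9 ± 33.5 CPM in double mutants. Sms, spermine synthase, was at 24, 30.7 and 18.8 CPM in WT and at 38.7, 43.1, 37.8 and 32.6 CPM in PIK3CA mutants, with no overlap (log2 fold change 0.64, SE 0.276, edgeR adjusted p = 0.245). In double mutants Sms was at 30.2 to 46.7 CPM, against WT a difference of 0.75 (SE 0.267, edgeR adjusted p = 0.0814). When only the compared groups were fitted, both Sms differences were past the threshold (edgeR adjusted p = 0.0326 for PIK3CA mutant and 0.0351 for double mutant against WT). The PIK3CA mutant fit called 18.3% of all tested genes, against 4.52% in the fit of all 16 samples. For the double mutant these shares were 11.7% and 11.8%.

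In the antizyme system none of the 3 genes passed a test in the comparisons without HER2 single mutants. Oaz1 was at 99.3 to 111 CPM in WT and at 96.3 to 101 CPM in PIK3CA mutants (edgeR log2 difference −0.11, SE 0.158, adjusted p = 0.804). Oaz1 was at 72.1 to 112 CPM in HER2 mutants and at 76.6 to 114 CPM in double mutants. Oaz2, which encodes antizyme 2, was at 55.4 to 63.4 CPM in WT, 58.8 to 76.1 in PIK3CA mutants and 53.1 to 75.5 in double mutants. Oaz2 was at 50.3 to 56.1 CPM in HER2 mutants, below all 4 PIK3CA mutants (a log2 difference of −0.41, SE 0.125, described only). Azin1, an ornithine decarboxylase homologue without enzyme activity that binds antizyme, was at 20.5 to 23.4 CPM in WT and at 15.9 to 25.9 CPM in PIK3CA mutants. Its 5 double mutant values were 28.2, 59.7, 41.8, 26.8 and 27.8 CPM, all above WT and PIK3CA mutants. The edgeR log2 difference of Azin1 was 0.75 against either group (SE 0.266, adjusted p = 0.08 against WT, and SE 0.242, adjusted p = 0.199 against PIK3CA mutants), so neither passed. Without double mutant replicates 2 and 3 it was 0.33 against WT (edgeR adjusted p = 0.354) and 0.34 against PIK3CA mutants (edgeR adjusted p = 0.45).

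Smox, the oxidase that turns spermine into spermidine with release of hydrogen peroxide, was higher in the tumor-derived organoids of all 3 mutant genotypes than in any WT sample. It was at 58.2, 71.8 and 45.4 CPM in WT and at 137, 172, 178 and 210 CPM in PIK3CA mutants. It was at 165, 138, 315 and 181 CPM in HER2 mutants and at 115, 216, 276, 127 and 128 CPM in double mutants. Smox rose 2.98-fold from WT to PIK3CA mutant (log2 fold change 1.58, SE 0.335, edgeR adjusted p = 0.0121) in 4 of 4 samples. That call was lost without WT replicate 1 (edgeR adjusted p = 0.0533) and without WT replicate 3 (edgeR adjusted p = 0.0947). It rose 2.94-fold from WT to double mutant (1.56 on the log2 scale, SE 0.326, edgeR adjusted p = 0.00553). The fold was 2.1 without double mutant replicates 2 and 3 (edgeR adjusted p = 0.0244). Between double and PIK3CA mutants the log2 difference was −0.02 (SE 0.281, edgeR adjusted p = 0.987). The HER2 mutant to WT log2 fold change was 1.77 (SE 0.338), and the double mutant lay below the sum of both single mutant changes by 1.79 log2 units (interaction −1.79, SE 0.431). Both of these are description only.

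Sat1, the acetyltransferase that marks spermidine and spermine for oxidation or export, was at 94.9, 58.2 and 83.5 CPM in WT, at 114, 120, 87.1 and 134 CPM in PIK3CA mutants and at 109, 81.2, 169 and 45.3 CPM in HER2 mutants. In double mutants it was at 110, 347, 417, 102 and 114 CPM, so replicates 2 and 3 stood apart and the other 3 lay within the PIK3CA mutant range. The double mutant to WT log2 fold change was 1.47 (SE 0.499, edgeR adjusted p = 0.0689), higher in 5 of 5 samples and not past the threshold. It was 0.46 (SE 0.346, edgeR adjusted p = 0.465) without replicates 2 and 3. DESeq2 called it (adjusted p = 0.0191), and edgeR called it without double mutant replicate 1, 4 or 5 (adjusted p = 0.045, 0.0451 and 0.0497). Against PIK3CA mutants the log2 fold change of Sat1 was 0.94 (SE 0.441, edgeR adjusted p = 0.4), and −0.07 without those 2 samples. Paox, the peroxisomal oxidase of acetylated polyamines, was the lowest gene per kilobase, at 12.4, 12.5 and 12.2 CPM in WT and at 15.7, 16, 15.1 and 18.1 CPM in PIK3CA mutants. These groups did not overlap, and the difference was 0.39 on the log2 scale (SE 0.158, edgeR adjusted p = 0.206, and 0.029 when only these groups were fitted). The fit of only these groups called 18.3% of all tested genes, against 4.52% with all samples. Paox overlaps Echs1, on the opposite strand, by 678 bases. Echs1, a mitochondrial enzyme of fatty acid oxidation, was at 59.1 ± 1.67 CPM in WT (n = 3) and 75.6 ± 4.3 CPM in PIK3CA mutants (n = 4). The strand setting of the counting is not given in the sources used here, and the part of Echs1 reads in the Paox counts was not tested.

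By comparison, 2 of the 10 genes passed between PIK3CA mutant and WT, Odc1 lower and Smox higher, where 4.52% of all tested genes did. The set was selected on Odc1, so its call may not be independent of the selection. Apart from Odc1 only Smox passed, and that call was lost without WT replicate 1 or 3. The median log2 fold change was 0.32 for the 10 genes and −0.03 for all genes tested. Of the 9 genes other than Odc1, 2 passed between double mutant and WT, Srm and Smox, both higher, where the share of all genes was 11.8%. The medians there were 0.75 and 0.01. Between double and PIK3CA mutants 0 of 9 passed with edgeR (all genes 0.672%). DESeq2 called 1 (Srm, 1.1% of all 55487 gene identifiers) and limma called 0 (all genes 0.685%). At an unadjusted edgeR p under 0.05 there were 3 (Srm, Azin1 and Sat1). The share of all genes at that level was not computed, and nothing is read from that count. The medians were 0.11 and 0.04.

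In the comparisons that hold HER2 single mutants, the counts are given beside the share of all genes and nothing is read from them. No such share was computed at an unadjusted p, and shares with DESeq2 are of all 55487 gene identifiers. Against WT, 2 of 9 (Srm and Smox) were past the threshold with edgeR (all genes 10.4%), with 3 at an unadjusted p under 0.05 (Paox added). DESeq2 called 3 (Paox added, all genes 6.52%) and limma called 2 (10.7%). Between HER2 and PIK3CA mutants 0 of 9 were past the threshold with edgeR (all genes 4.41%), with 2 at an unadjusted p under 0.05. DESeq2 called 1 (Oaz2, all genes 3.81%) and limma called 0 (4.63%). Between double and HER2 mutants the count was 0 of 9 with edgeR (all genes 2.5%), 2 unadjusted, and 0 by DESeq2 (2.97%) and by limma (2.01%). For the interaction it was 0 of 9 with edgeR (all genes 1.06%), 2 unadjusted (Smox and Paox), and 1, Smox, by DESeq2 (1.65%) and by limma (1.21%).

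**Figure D3:**
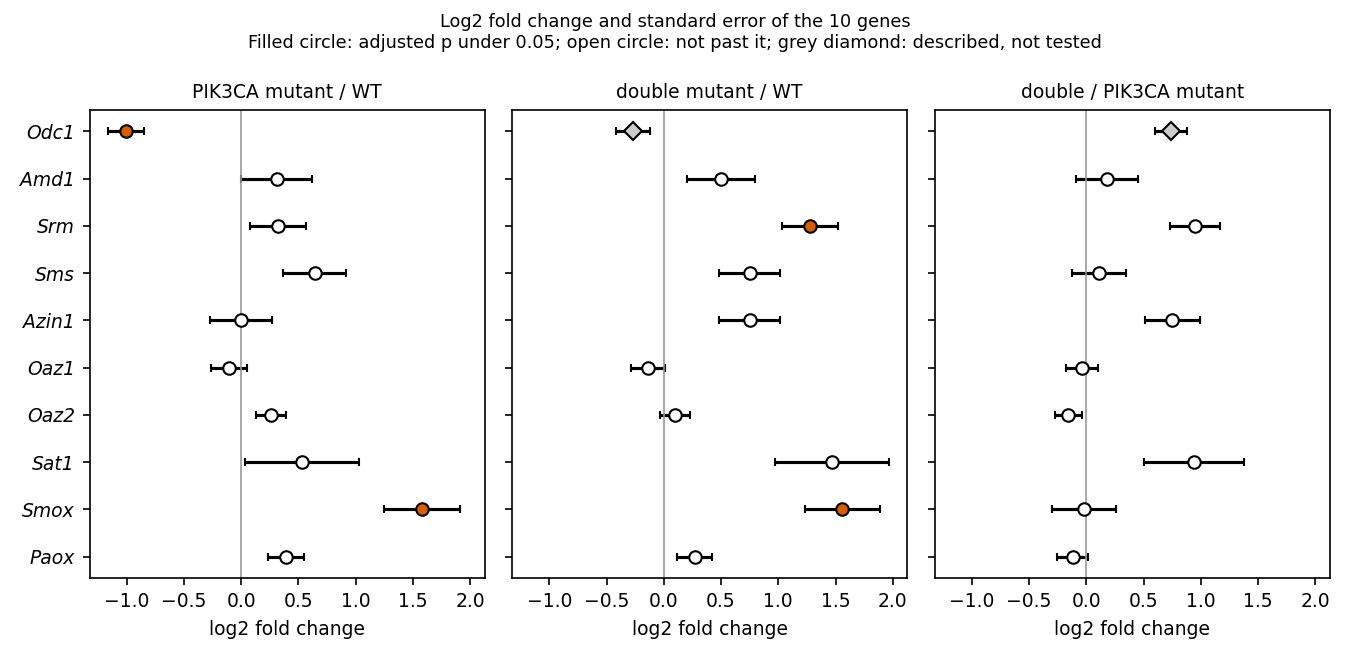
Log2 fold change of each polyamine gene with its standard error in the 3 comparisons without HER2 single mutant samples; filled circles passed an adjusted p of 0.05 in edgeR, open circles did not, and the grey diamonds of Odc1 are described only. Odc1 is at −1.01 and Smox at 1.58 in PIK3CA mutants, Srm is at 1.28 and Smox at 1.56 in double mutants, and no tested gene passed between double and PIK3CA mutants.

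Double mutant replicates 2 and 3 stood apart from the other 3 double mutants for most of the 10 genes. Both were above all 3 others for 4 genes: Sat1, Smox, Azin1 and Amd1. Both were below all 3 others for 5 genes: Srm, Sms, Oaz1, Oaz2 and Paox. Only Odc1 showed neither pattern. The share of all tested genes that split in this way was not computed, and these replicates were picked after seeing the data. Nothing particular to the polyamine genes is read from these counts. In replicate 2 and replicate 3 the summed level of 8 milk genes was 13003 and 7121 CPM, against 15528 to 22852 CPM in the others. Most of that sum was Csn3, with a mean of 13118 CPM over all 5 double mutants, followed by Csn1s1 at 1839 CPM. The sum of 10 proliferation genes was 177 and 132 CPM, against 227 to 363 CPM. The sum of 4 luminal markers was 782 and 558 CPM, against 916 to 1192 CPM. The 4 general epithelial markers went the other way, with 4374 and 2625 CPM against 2129 to 2473 CPM. The sums of basal (463 and 776 against 771 to 925 CPM), macrophage (424 and 239 against 359 to 417 CPM) and fibroblast markers (26.2 and 58 against 38 to 48.7 CPM) did not place both replicates on the same side. The part of these differences in the polyamine values was not tested.

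**Figure D4:**
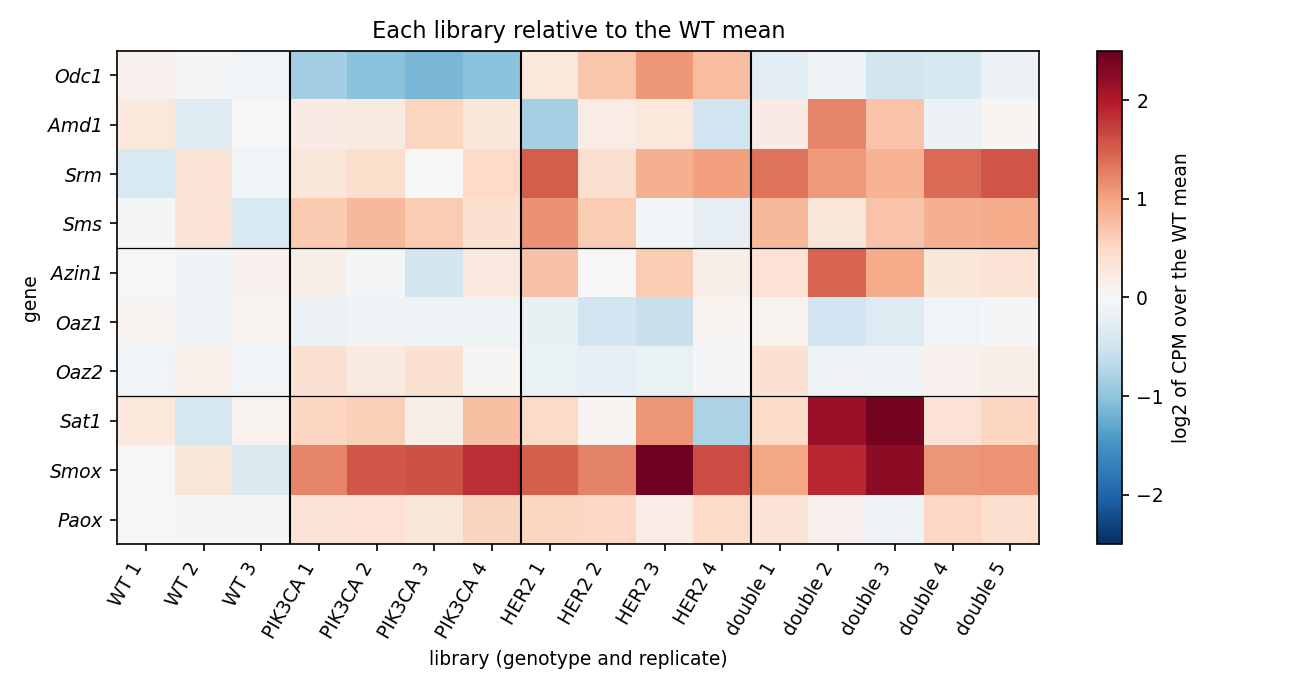
Log2 of the CPM of each polyamine gene in each of the 16 libraries over the mean of the 3 WT libraries (colour), with lines between genotypes and between synthesis, antizyme and catabolic genes. Odc1 is blue in all 4 PIK3CA mutants, Smox is red in all 13 mutant libraries, and double mutant replicates 2 and 3 are at 2.14 and 2.40 for Sat1.

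Total counts ran from 45545182 to 64168308 per library. All 12 markers of epithelium, luminal and basal cells were above 3 counts in every library. Markers of other cells differed between WT and the mutants. The 6 macrophage markers summed to 1023 to 3497 CPM in WT, 610 to 772 in PIK3CA mutants, 271 to 449 in HER2 mutants and 239 to 424 in double mutants, with 6 of 6 above 3 counts in every WT library and 3 of 6 in every PIK3CA and every double mutant library. Most of the macrophage sum in the mutants was Cd14, at a mean of 540 CPM in WT, 650 in PIK3CA mutants, 278 in HER2 mutants and 328 in double mutants. The means of Lyz2 were 1388, 2.84, 50.2 and 0.177 CPM in the same order of groups, and those of Ptprc were 22.3, 0.0962, 1.16 and 0.066 CPM. The 6 fibroblast markers summed to 325 to 1899 CPM in WT, 65.1 to 471 in PIK3CA mutants, 34 to 624 in HER2 mutants and 26.2 to 58 in double mutants. No marker of either list was at 0 in all libraries of a genotype, but Adgre1 was at 0 to 0.0554 CPM in double mutants and at 8.62 to 43.7 CPM in WT. The part of these cells in the values of Smox, Srm and Odc1 in WT was not tested. In bulk RNA, fewer cells of a type and less RNA per cell cannot be told apart. The 4 endothelial and the 4 adipocyte markers summed to at most 4.59 CPM in any library.

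Genes around the pathway were counted in lists, to be read against the 4.52% of all tested genes that passed between PIK3CA mutant and WT, the 11.8% between double mutant and WT, and the 0.672% between double and PIK3CA mutants. A count of 1 of 8 to 1 of 10 between double mutant and WT is near that share. Among 8 tested genes of ornithine supply, 1 passed between PIK3CA mutant and WT, Oat, higher (median of the list 0.12, all genes 4.52%). Oat, the mitochondrial ornithine aminotransferase, was at 29.8 ± 8.13 CPM in WT and rose to 56.2 ± 4.65 CPM in PIK3CA mutants (log2 fold change 0.92, edgeR adjusted p = 0.0415). Between double mutant and WT 2 of the 8 rose and 1 fell (median 0.26, all genes 11.8%). Oat reached 62.1 ± 15.7 CPM (log2 fold change 1.06, edgeR adjusted p = 0.00811). Slc7a1, a transporter of arginine and ornithine, went from 56.3 ± 4.73 to 120 ± 31.9 CPM (1.09, edgeR adjusted p = 0.0069). Gatm, which uses arginine to make the precursor of creatine, was the gene that fell, from 3.78 ± 4.17 to 0.145 ± 0.151 CPM. Slc7a1 was also the only gene of this list past the threshold between double and PIK3CA mutants (1.05 on the log2 scale, edgeR adjusted p = 0.0406; list median −0.07).

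The 9 genes of S-adenosylmethionine supply and methionine salvage, which serve the AMD1 step, held no call between PIK3CA mutant and WT (median −0.13). Between double mutant and WT 1 of 9 fell (median −0.05, all genes 11.8%), Mat1a, a gene at 0.312 ± 0.177 CPM in WT. None of 6 tested genes of polyamine transport and none of 6 further polyamine enzymes and regulators passed in either of these comparisons or between double and PIK3CA mutants. Their medians were −0.47 and −0.26 between PIK3CA mutant and WT, and −0.21 and −0.18 between double mutant and WT. Of the transport genes Atp13a4 was at 6.64 ± 5.14 CPM in HER2 mutants and at 1.16 ± 0.278 CPM in PIK3CA mutants, given as levels only.

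Spermidine is the donor for hypusine, the modified lysine of the translation factor eIF5A. Of 4 hypusination genes none passed between PIK3CA mutant and WT (median −0.30, all genes 4.52%), and 1 of 4 rose between double mutant and WT (median −0.26, all genes 11.8%). That gene was Eif5a, at 231 ± 21.8 CPM in WT and 370 ± 31.8 CPM in double mutants (a log2 difference of 0.68, SE 0.121, edgeR adjusted p = 0.00186). Its paralogue Eif5a2 was at 4.42 ± 0.76 CPM in WT, 2.3 ± 0.37 in PIK3CA mutants, 1.59 ± 0.63 in HER2 mutants and 3.19 ± 0.353 in double mutants.

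In the MYC network, 1 of 10 genes passed between PIK3CA mutant and WT (median 0.11, all genes 4.52%) and 1 of 10 between double mutant and WT (median 0.14, all genes 11.8%). Mxd1, a MAX partner that opposes MYC, rose from 15.8 ± 1.35 CPM in WT to 35.6 ± 5.98 CPM in PIK3CA mutants (log2 fold change 1.17, edgeR adjusted p = 0.00932), and was at 31.8 ± 4.13 CPM in HER2 mutants and 25.5 ± 8.69 CPM in double mutants. Myc rose from 63.7 ± 22.9 CPM in WT to 152 ± 66.9 CPM in double mutants (log2 fold change 1.25, edgeR adjusted p = 0.0148). Mean Odc1 was 50.3 CPM in WT, 24.9 in PIK3CA mutants, 83.6 in HER2 mutants and 41.7 in double mutants. The part of Myc in these Odc1 values was not tested. Myc was at 86.8 ± 17.3 CPM in PIK3CA mutants (0.45 against WT, edgeR adjusted p = 0.521) and at 203 ± 16.3 CPM in HER2 mutants.

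The 5 genes whose log2 CPM followed Odc1 most closely over the 16 samples, among 9377 genes ranked by Pearson correlation, were Ttpal (r = 0.896), Btn1a1 (0.880), Tead4 (0.857), Gmds (0.824) and Adpgk (0.815). These values describe samples that fall into 4 genotypes and carry no p. The genes were picked for following Odc1 in these same samples, HER2 mutants included, so the choice favours a like order of genotypes. Ttpal was at 46.5 ± 1.9 CPM in WT, 37.5 ± 2.73 in PIK3CA mutants, 53.5 ± 4.6 in HER2 mutants and 41.9 ± 2.65 in double mutants, the same order of genotypes as Odc1. Tead4, a transcription factor of the Hippo pathway, was at 36.3 ± 3.02, 13.9 ± 2.39, 45.7 ± 19.1 and 29.2 ± 11.4 CPM in the same order of groups. Btn1a1, which encodes the milk fat globule protein butyrophilin, was at 4.02 ± 2.08, 1.65 ± 0.479, 215 ± 151 and 8.39 ± 7.53 CPM.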

How the data were processed

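Raw read counts per gene were deposited by the authors for 16 samples of 4 genotypes, and a second deposited table holds a normalized signal that equals the count over a single factor per sample (largest relative spread 9.93e-10). Per the submitters' processing notes, bcl2fastq 2.20, STAR 2.0.4b, Subread, featureCounts 1.4.5, DESeq2 1.33.5 and mm10 were used. Library preparation used a SMARTer mRNA kit, per the labels' protocols. Of 55774 table entries, 287 repeats were dropped. Counts were tested with edgeR 4.0.16 in R 4.3.3 (TMM scaling, filterByExpr, glmQLFit over all 16 samples, two-sided, Benjamini-Hochberg over 24252 genes, threshold 0.05). The procedure was tested on simulated data. Alternatives were 2 other scalings, no filter, DESeq2 1.42.0, limma 3.58.1 on log2 of the deposited signal plus 1, only the compared groups, a replicate block, and each replicate left out. Positions, lengths and sequences come from GENCODE M21 (GRCm38).

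The 10 genes and all lists were chosen with earlier results of these data known. All 10 genes were named. From each list up to 4 genes were named that passed in a comparison other than HER2 mutant against WT and had a mean log2 CPM of at least 1. Mat1a and Gatm, which fall below that level, were named after their values were seen, as the only genes of their lists that fell in the 3 comparisons without HER2 single mutants. Genes most like Odc1 had a mean log2 CPM of at least 3. The tests of comparisons that hold HER2 single mutant samples were planned for the 9 genes other than Odc1, and are given only as counts.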

Additional observations from a re-analysis of the deposited data

How the results depend on the processing

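Odc1 between PIK3CA mutant and WT kept its call in every alternative fit, and so did Srm and Smox between double mutant and WT. These fits were the other scalings, filter, tools, choices of samples and the replicate block. Smox between PIK3CA mutant and WT kept its call in all of them except without WT replicate 1 or 3. The number of genes past the threshold between PIK3CA mutant and WT was 4 when only these groups were fitted (Sms and Paox added, edgeR adjusted p = 0.0326 and 0.029). That fit called 18.3% of all tested genes, against 4.52% in the main fit. With a sample left out the number was 1 to 2 (all genes 1.58% to 4.14%). Between double and PIK3CA mutants the number was 1 (Srm) with upper-quartile scaling (all genes 0.726%), DESeq2 (1.1%) or only these groups (1.69%). Without double mutant replicates 2 and 3 it was also 1 (0.89%), and with a sample left out 0 to 1 (0.0702% to 0.593%). For HER2 against PIK3CA mutants the number was 1 with DESeq2 (all genes 3.81%) and without double mutant replicates 2 and 3 (6.84%). With a sample left out it was 0 to 1 (1.76% to 4.84%). For HER2 mutant against WT the number was 1 with only these groups (all genes 2.37%). It was 3 (Paox added) with upper-quartile scaling (10.2%), DESeq2 (6.52%) or without double mutant replicates 2 and 3 (14.7%). With a sample left out it was 1 to 2 (2.92% to 11.2%). For double mutant against WT the number was 3 with DESeq2 (Sat1 added, all genes 7.18%) and with only these groups (Sms added, 11.7%). It was also 3 without double mutant replicate 1, 4 or 5 (Sat1 added, 12.3%, 10.2% and 10.9%). Otherwise it was 2 (4.68% to 11.9%). For the interaction the number was 1 with no filter (all genes 0.651%), DESeq2 (1.65%) or limma (1.21%). It was also 1 without double mutant replicates 2 and 3 (4.17%), and 0 to 1 with a sample left out (0.215% to 1.59%). Shares with DESeq2 are of all 55487 gene identifiers, and those with no filter are of all genes with a count. The causes of these changes were not tested. Leaving out replicates 2 and 3 together was chosen after seeing the data.

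Log2 fold changes near 0 that passed no test changed sign, and so did that of Sat1, which was not near 0. Azin1 between PIK3CA mutant and WT was 0.007 with median-of-ratios scaling, 0.001 with upper-quartile scaling, 0.017 with no filter, 0.008 with DESeq2 and 0.060 with the replicate block, and −0.092 to 0.124 with a sample left out. Between double and PIK3CA mutants, samples left out gave −0.07 to 0.31 for Amd1, −0.10 to 0.037 for Oaz1 and −0.25 to 0.10 for Smox, which was 0.011 with the replicate block. Without double mutant replicates 2 and 3 that comparison gave −0.27 for Amd1, 0.11 for Oaz1, −0.067 for Sat1 and 0.03 for Paox, and Oaz1 was 0.008 against WT. With all 16 samples Sat1 was at 0.94 between double and PIK3CA mutants (SE 0.441, edgeR adjusted p = 0.4).

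Replicate numbers did not clearly pair the samples. Correlations of the deviations of same-numbered samples averaged 0.157 between HER2 and double mutants (0.071 to 0.273), where differently numbered samples averaged −0.041. For the other 5 pairs of genotypes the same-numbered correlations lay below 0.157. Whether HER2 and double mutant samples are paired cannot be told from these values. With the replicate block the counts were 2 (PIK3CA mutant against WT), 2 (double mutant against WT and HER2 mutant against WT) and 0 in the other 4 comparisons, as without it. The block fit called 3.28%, 9.73% and 6.7% of all genes in the comparisons named, and 0.0784% to 2.28% in the other 4. With 3 to 5 samples per genotype and 2 double mutants apart from the rest, values that missed the threshold are not shown to be alike.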

Other observations

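Proliferation and milk genes were counted as lists that describe the state of the organoids. Of 10 proliferation genes none passed between PIK3CA mutant and WT (edgeR, median log2 fold change 0.77, all genes 4.52%), 2 rose between double mutant and WT (median 1.15, all genes 11.8%), and none passed between double and PIK3CA mutants (median 0.36, all genes 0.672%). Cdk1, the mitotic kinase, went from 4.59 ± 1.86 to 15.7 ± 3.03 CPM (log2 fold change 1.78, edgeR adjusted p = 0.00351), and Ccnb1, its cyclin, from 2.64 ± 1.6 to 9.62 ± 4.44 CPM (1.87, edgeR adjusted p = 0.049). Of 8 milk genes none passed between PIK3CA mutant and WT (median 0.59, all genes 4.52%), and 3 rose between double mutant and WT (median 2.22, all genes 11.8%), among them the caseins Csn1s1, from 398 ± 187 to 1839 ± 536 CPM, and Csn2, from 0.156 ± 0.157 to 7.04 ± 5.56 CPM. Csn2 was also the only milk gene past the threshold between double and PIK3CA mutants (0.23 ± 0.136 CPM in PIK3CA mutants, edgeR adjusted p = 0.0431). In HER2 mutants Csn2 was at 8962 ± 9698 CPM, Csn1s1 at 6546 ± 5246 CPM and Csn1s2a at 1149 ± 1394 CPM, given as levels only.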
